A study of Arabidopsis thaliana with 18 samples.

Results

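The nuclear genes for photosystem, antenna and Rubisco small-subunit proteins were followed in shoots of 14-day-old Arabidopsis thaliana seedlings that carried mutations in CURLY LEAF (CLF), the Polycomb methyltransferase that places the histone mark H3K27me3. The set holds 46 genes of the LHCA, LHCB, PSA, PSB and RBCS families, listed by gene ID, out of 32992 genes in the mRNA files. It falls into 6 antenna genes of photosystem I (LHCA1 to LHCA6), 9 genes of the trimeric antenna LHCII, 5 genes of the minor antenna of photosystem II, 12 subunits of photosystem I, 5 proteins of the oxygen-evolving complex, 5 other photosystem II subunits and 4 Rubisco small-subunit genes.

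In leaves, antenna proteins bind chlorophyll and pass light energy to the reaction centres of photosystem II and photosystem I. The oxygen-evolving complex on photosystem II splits water, and Rubisco fixes carbon dioxide. Nuclear genes encode the antenna, many small photosystem subunits and the small subunit of Rubisco, while the chloroplast genome encodes the reaction-centre cores and the large subunit of Rubisco. H3K27me3 is a repressive mark that covers silent developmental genes, and photosynthesis genes are among the most strongly expressed genes of a leaf.

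The plants compared were the clf F1 hybrid, made by crossing both clf parents, the C24 clf line and the Col clf line. The Col parent carried the insertion allele SALK_139371. The C24 parent carried a chemically induced G-to-A change that replaces an aspartate with an asparagine in the SET domain, the catalytic part of the protein. Seedlings were kept in short days, with 8 h of light (22 °C) and 16 h of darkness (18 °C), on Murashige and Skoog medium holding 1% sucrose. Poly(A) mRNA was sequenced from clf plants only, with 3 libraries each of clf F1, C24 clf and Col clf, and H3K27me3 peaks were listed for 1 library each of clf F1, C24 clf and Col clf and for 2 each of wild-type F1, C24 and Col. All mRNA came from clf plants, so the effect of the mutation on mRNA could not be measured. Accession and clf allele differ together and cannot be told apart. Whether replicates came from separately grown plants is not said in the labels, so each p-value reflects the spread among these libraries, which may be technical.

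CLF itself was listed at 4.35, 3.93 and 4.08 RPKM (reads per kilobase of transcript, scaled to the size of the library) in clf F1, at 7.20, 7.14 and 8.35 in C24 clf and at 1.21, 0.99 and 1.37 in Col clf. It was higher in C24 clf than in Col clf in every library, but the level of an mRNA does not check an allele with a single-base substitution. Estimated depth ran from 14.9 to 24.05 M reads. A ribosomal RNA gene (AT3G41979), a sign of how much non-messenger RNA a library kept, ran from 1363 to 16022 RPKM in clf F1, from 122.2 to 365 in C24 clf and from 2148 to 17796 in Col clf. The 5 mesophyll markers summed to 6235 to 6863 RPKM in clf F1, 5629 to 6000 in C24 clf and 6266 to 6817 in Col clf, and 3 of the 5 were lower in C24 clf than in Col clf (limma adjusted p below 0.05), but 0 were lower and 1 was higher with quantile normalization. The 7 root markers summed to 131.1 to 149.4 RPKM in clf F1, 210.9 to 216.9 in C24 clf and 95.1 to 106.9 in Col clf. Nearly all of each sum was PYK10, a myrosinase, and the other root markers were below 1 RPKM in every library. PYK10, the 1 tested root marker, was higher in C24 clf, and the root-hair gene COBL9 was listed at 0 in all 9 libraries. The 8 seed markers summed to 2.90 to 59.98 RPKM in clf F1, 76.9 to 209.6 in C24 clf and 0.33 to 3.91 in Col clf, with CRU2 and SESA4 listed at 0 throughout, and all 3 tested ones were higher in C24 clf. The 6 floral-organ markers, some of them known Polycomb targets, summed to 146.7 to 171.7 RPKM in clf F1, 293.2 to 347.6 in C24 clf and 71.2 to 90.5 in Col clf, and all 5 tested ones were higher in C24 clf. The part of these markers and of the rRNA in the results that follow was not tested. The 3 libraries richest in rRNA were clf F1 replicates 2 and 3 and Col clf replicate 2. Leaving them out kept only replicate 1 of clf F1. The Col clf libraries kept, at 6359 and 2148 RPKM of rRNA, still lay above every C24 clf library. That setting therefore cannot decide the part of the rRNA.

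The 46 genes made up a large part of each library. They held 23.8%, 24.2% and 23.6% of the summed RPKM in clf F1, 20.7%, 21.7% and 19.3% in C24 clf and 22.9%, 22.9% and 24.05% in Col clf. The C24 clf libraries were all below the others, and the clf F1 and Col clf libraries overlapped. Of the 10 genes with the highest mean RPKM, 8 were members, and of the highest 100, 42 were. The LHCII trimer genes took the largest class share, at 7.05% ± 0.268 of the summed RPKM in clf F1, 5.99% ± 0.549 in C24 clf and 6.69% ± 0.125 in Col clf (SD, n = 3 each).

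Levels per length spanned a wide range within the set, as the plot of RPKM by library shows. The mean over the 3 groups was 13100 RPKM for RBCS1A, the major Rubisco small-subunit gene, and 10637 for LHCB1.5 of LHCII. It was 134 for LHCA6, a photosystem I antenna protein that is known to link photosystem I to the NAD(P)H dehydrogenase complex, and 13.4 for LHCB4.3, a weakly expressed form of the minor antenna protein CP29. LHCB1.3 (AT1G29930), 1 of 3 near-identical LHCB1 copies on the same chromosome, was listed at 0 in all 9 libraries. Its neighbours LHCB1.1 and LHCB1.2 were listed at 7076 to 12020 RPKM, so reads of LHCB1.3 may have been given to these copies. The single values of all 3 are uncertain. How shared reads were divided is also uncertain for the similar pair LHCB2.1 and LHCB2.2 and for RBCS1B, RBCS2B and RBCS3B, none of which was listed at 0.

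**Figure D1:**
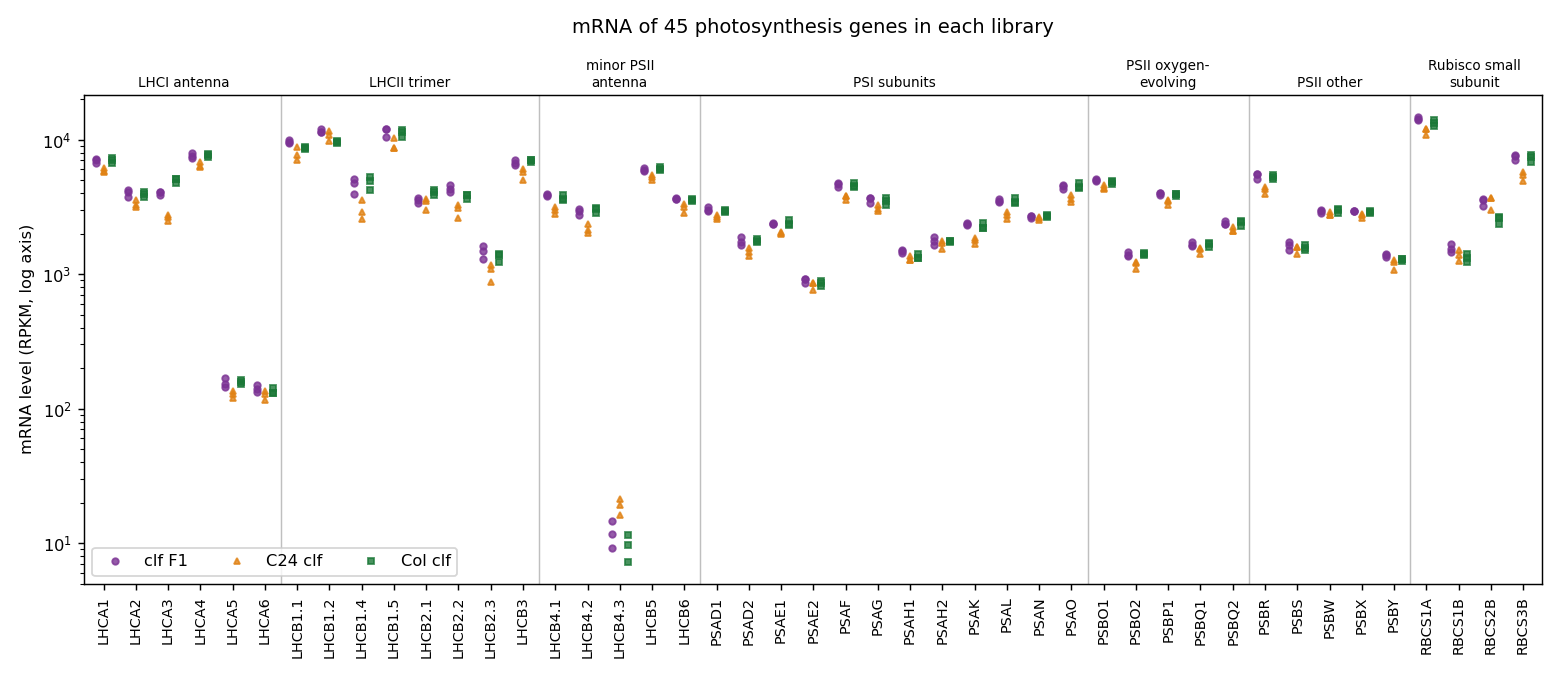
mRNA level of the 45 genes with a value above 0, in RPKM on a log axis, by class from left to right. Each point is 1 library of clf F1 (circles), C24 clf (triangles) or Col clf (squares), with 3 libraries a group. LHCB4.3 lies between 7.28 and 21.45 RPKM, LHCA5 and LHCA6 between 116 and 168 RPKM and all other genes between 767.8 and 14785 RPKM.

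C24 clf was compared with Col clf, the 2 clf lines of different accession. Most of the genes were modestly lower in C24 clf. Of 45 tested genes, 26 were lower, 2 were higher (LHCB4.3 and RBCS2B) and 17 did not pass (limma, Benjamini-Hochberg adjusted p below 0.05 over the 17819 genes that reached 1 RPKM in 3 or more libraries). Among all tested genes 12.7% were lower and 31.8% were higher, so with RPKM as deposited the set held more lower and fewer higher genes than the whole table. The median log2 difference of the 45 was -0.22, against 0.13 over all tested genes. In 33 of the 45 genes all 3 C24 clf libraries lay below all 3 Col clf libraries, against 15.4% of all tested genes, and in 2 they lay above, against 40% of all tested genes. In bulk shoots, fewer photosynthetic cells and less of these mRNAs per cell cannot be told apart. The submitters' processing notes name TAIR10, a Col sequence, as the genome, so a lower mRNA level and a loss of C24 reads to sequence differences cannot be told apart either.

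The size and the split of these calls depend on how libraries were scaled. With median-ratio scaling, which brings the median of all genes to 0.0014, 1 member was higher and 36 were lower, with a member median of -0.36, while 3780 of all 17819 genes were higher and 3870 lower. With quantile normalization 3 were higher (LHCB4.3, RBCS2B and PSBO1) and 2 lower (LHCA3 and LHCA5), with a member median of 0.10, while 3833 of all 17819 genes were higher and 3624 lower, so the set then held fewer lower genes than the whole table. The estimates of 15 of the 26 lower genes turned positive there: LHCA1, LHCA2, LHCA4, LHCB2.1, LHCB2.2, LHCB3, LHCB4.1, LHCB5, LHCB6, PSAE1, PSAF, PSAO, PSBP1, PSBR and RBCS1A, none of which passed as higher. Quantile normalization gives every library the same distribution of values, and these genes fill much of its top. Of the 16 tested genes that overlap another annotated gene, whose reads cannot be told apart without strand, 11 were lower, and of the other 29 tested 15 were lower and 2 higher. LHCA3 and LHCA5 were lower and LHCB4.3 higher in all 18 alternative settings tried. Without any filter on low values 15 genes were lower, while 2550 of all 24937 genes tested there were lower. Without the 3 libraries richest in rRNA the member median was -0.23, against 0.096 over all tested genes. Leaving out a single library ended the call of 9 of the 26 (LHCA2, LHCA4, LHCB1.5, LHCB2.1, LHCB2.3, LHCB5, LHCB6, PSBP1 and RBCS1A), and the libraries concerned were Col clf replicates 1, 2 and 3, C24 clf replicates 1 and 3 and clf F1 replicates 1 and 2.

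**Figure D2:**
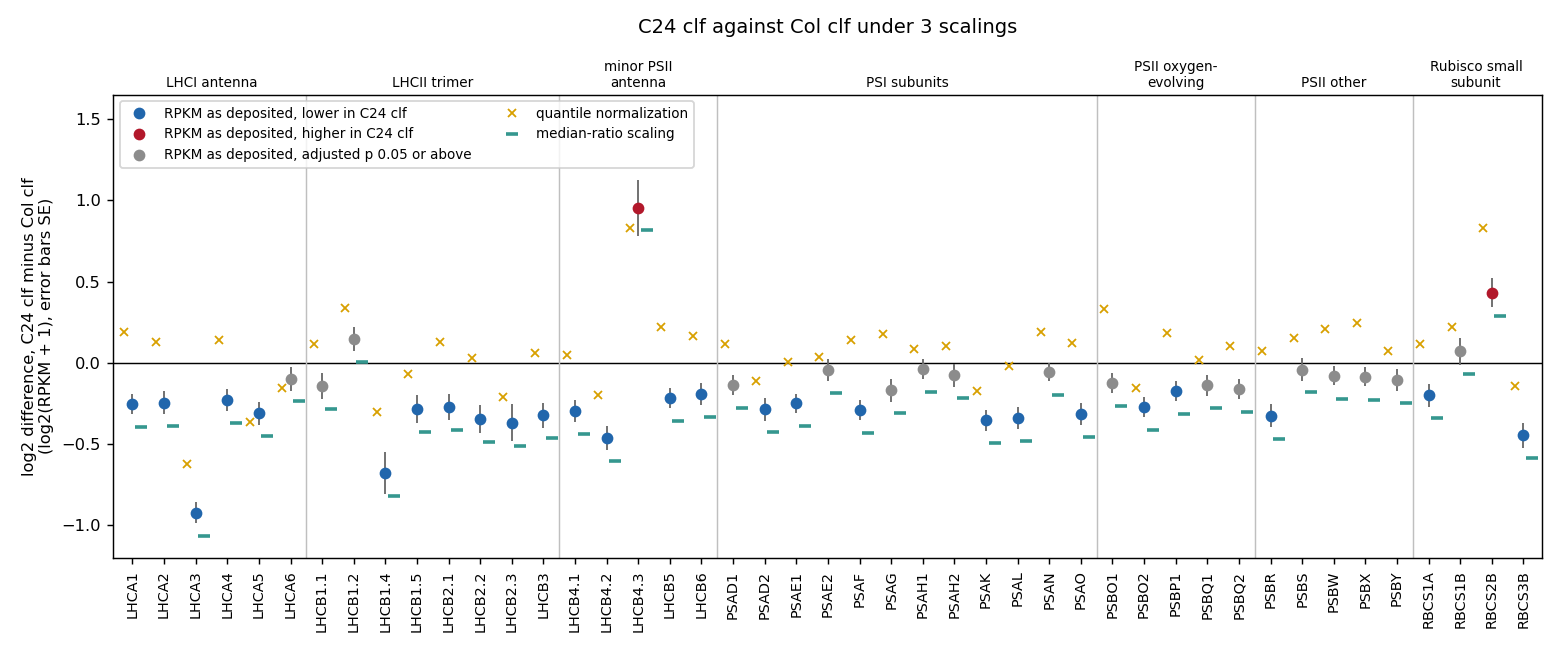
log2 difference of each gene, C24 clf minus Col clf, on the log2(RPKM + 1) scale, for RPKM as deposited (circles with SE bars, 3 libraries a group), quantile normalization (crosses) and median-ratio scaling (dashes). Blue circles are the 26 lower genes, red the 2 higher ones and grey the 17 that did not pass. LHCA3 lies lowest at -0.92 and LHCB4.3 highest at 0.95, and the crosses of most genes lie above the circles and the dashes below.

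Of the photosystem I antenna genes, 5 of 6 were lower in C24 clf, and LHCA3 had the largest fall of the 45 tested genes. LHCA3 (AT1G61520), an LHCI protein that carries red-shifted chlorophylls, was listed at 3852, 4109 and 4100 RPKM in clf F1, at 2659, 2765 and 2495 in C24 clf and at 4777, 5085 and 5138 in Col clf. Every C24 clf library was far below every Col clf library. The log2 difference was -0.92 (SE 0.066, limma adjusted p 5.47e-07), a fold of 0.528. LHCA1, LHCA2, LHCA4 and LHCA5 were lower by smaller amounts, with log2 differences from -0.31 to -0.23, but with quantile normalization LHCA1, LHCA2 and LHCA4 stood at 0.19, 0.13 and 0.14. LHCA6 was listed at 149.3, 139.1 and 133.1 RPKM in clf F1, at 134.1, 127.8 and 116.2 in C24 clf and at 142.5, 131.3 and 130.5 in Col clf, which overlap, and did not pass (adjusted p 0.302). LHCA2 had 3759, 4100 and 4218 RPKM in clf F1, 3157, 3530 and 3279 in C24 clf and 3728, 3973 and 4110 in Col clf, and every C24 clf library was below every Col clf library.

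In the LHCII trimer class 6 of 8 tested genes were lower and none was higher. The LHCB1, LHCB2 and LHCB3 proteins form the trimers that make up most of the antenna of photosystem II. LHCB1.4 (AT2G34430) was listed at 3944, 5126 and 4724 RPKM in clf F1, at 2584, 3543 and 2904 in C24 clf and at 4234, 5248 and 4916 in Col clf. C24 clf and Col clf did not overlap, and the log2 difference was -0.68 (SE 0.13, limma adjusted p 0.00117). LHCB2.2 had 4323, 4628 and 4112 RPKM in clf F1, 3092, 3244 and 2620 in C24 clf and 3842, 3891 and 3594 in Col clf, a log2 difference of -0.34 (SE 0.085, adjusted p 0.00658). LHCB2.3 had 1494, 1608 and 1286 RPKM in clf F1, 1089, 1177 and 872.5 in C24 clf and 1411, 1386 and 1231 in Col clf, a difference of -0.37 (SE 0.11, adjusted p 0.0209). Both were below Col clf in every library, but the LHCB2.3 call was lost without Col clf replicate 1 or 2 or C24 clf replicate 3, at adjusted p 0.066, 0.0641 and 0.0817. LHCB3 had 6662, 7083 and 6526 RPKM in clf F1, 5744, 6008 and 5014 in C24 clf and 6802, 7025 and 7105 in Col clf, a difference of -0.32 (SE 0.076, adjusted p 0.00488). LHCB1.1 and LHCB1.2 did not pass, at -0.14 (adjusted p 0.163) and 0.14 (adjusted p 0.13), and the C24 clf and Col clf libraries overlapped in each.

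All 5 minor antenna genes of photosystem II passed, in opposite directions. These proteins join the LHCII trimers to the core, and LHCB4 genes encode CP29, LHCB5 encodes CP26 and LHCB6 encodes CP24. LHCB4.3 (AT2G40100) was listed at 14.7, 9.19 and 11.7 RPKM in clf F1, at 21.45, 16.3 and 19.3 in C24 clf and at 9.60, 7.28 and 11.5 in Col clf. Its C24 clf libraries were all higher, with a log2 difference of 0.95 (SE 0.17, limma adjusted p 8.90e-04). LHCB4.2, an abundant form of CP29, had 2740, 3028 and 2928 RPKM in clf F1, 2143, 2374 and 2032 in C24 clf and 2838, 3072 and 3110 in Col clf, with a difference of -0.46 (SE 0.075, adjusted p 4.04e-04) and no overlap of C24 clf with Col clf. LHCB4.1, the other abundant form, had 3811, 3876 and 3962 RPKM in clf F1, 3008, 3157 and 2783 in C24 clf and 3535, 3589 and 3849 in Col clf, at -0.30 (adjusted p 0.00402). LHCB5 and LHCB6 were lower as well, at -0.22 and -0.19.

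Among the photosystem I subunits, 6 of 12 were lower in C24 clf and none was higher. PSAK (AT1G30380), a small subunit near the antenna side of the complex, had 2314, 2343 and 2403 RPKM in clf F1, 1796, 1859 and 1667 in C24 clf and 2203, 2217 and 2383 in Col clf. All its C24 clf libraries were lower, at a log2 difference of -0.35 (SE 0.064, limma adjusted p 9.19e-04). PSAL, which takes part in LHCII docking, had 3437, 3505 and 3609 RPKM in clf F1, 2774, 2921 and 2569 in C24 clf and 3363, 3447 and 3656 in Col clf, at -0.34 (SE 0.067, adjusted p 0.00161). PSAF, the subunit that docks plastocyanin, had 4441, 4673 and 4755 RPKM in clf F1, 3802, 3836 and 3569 in C24 clf and 4407, 4547 and 4744 in Col clf, at -0.29 (adjusted p 0.00317). Neither gene overlapped between C24 clf and Col clf. PSAD2 and PSAE1, of the ferredoxin-docking side, and PSAO, which takes part in LHCII binding, were lower too, at -0.29, -0.25 and -0.32. PSAD1, PSAE2, PSAG, PSAH1, PSAH2 and PSAN did not pass, at log2 differences from -0.17 to -0.04, and of these PSAD1 (adjusted p 0.0248) and PSAG (0.0171) passed as lower with the replicate block.

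Of the 10 photosystem II genes outside the antenna 3 were lower. In the oxygen-evolving complex, which stabilises the manganese cluster, PSBO2 and PSBP1 of 5 genes were lower. PSBO2 (AT3G50820) was listed at 1458, 1390 and 1358 RPKM in clf F1, at 1200, 1227 and 1093 in C24 clf and at 1418, 1396 and 1428 in Col clf, with C24 clf below Col clf throughout and a difference of -0.27 (limma adjusted p 0.00468). PSBO1, the main form of the same protein, had 4946, 5018 and 5110 RPKM in clf F1, 4395, 4606 and 4283 in C24 clf and 4704, 4804 and 4959 in Col clf, and did not pass at -0.12 (adjusted p 0.116). PSBQ2 had 2377, 2466 and 2348 RPKM in clf F1, 2099, 2229 and 2101 in C24 clf and 2270, 2422 and 2489 in Col clf, at -0.16 (adjusted p 0.056). For both genes the C24 clf libraries lay below those of Col clf, and both passed as lower with the replicate block (adjusted p 0.0497 for PSBO1 and 0.014 for PSBQ2), as did PSBQ1 (0.0298), while PSBO1 passed as higher with quantile normalization. Of the other subunits only PSBR (AT1G79040) was lower, with 5139, 5506 and 5550 RPKM in clf F1, 4277, 4474 and 3932 in C24 clf and 5091, 5302 and 5476 in Col clf, a difference of -0.32 (SE 0.070, adjusted p 0.00277). PSBS, the protein of rapid photoprotective quenching, PSBW, PSBX and PSBY had log2 differences from -0.11 to -0.04 and did not pass.

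The 4 Rubisco small-subunit genes split. RBCS2B (AT5G38420) was listed at 3642, 3580 and 3231 RPKM in clf F1, at 3694, 3650 and 2994 in C24 clf and at 2618, 2651 and 2375 in Col clf, so every C24 clf library was higher. The log2 difference was 0.43 (SE 0.090, limma adjusted p 0.0024), and 0.29 with median-ratio scaling, where it did not pass (adjusted p 0.0602). RBCS3B (AT5G38410) had 7538, 7098 and 7700 RPKM in clf F1, 5736, 5483 and 4935 in C24 clf and 7394, 6846 and 7726 in Col clf, a difference of -0.44 (SE 0.077, adjusted p 6.53e-04) with no overlap of C24 clf with Col clf. RBCS1A had 14250, 14010 and 14785 RPKM in clf F1, 12068, 12002 and 10764 in C24 clf and 13301, 12662 and 14056 in Col clf, a difference of -0.20 (adjusted p 0.0401) that held in 9 of 18 alternative settings. RBCS1B did not pass, at 0.07. RBCS2B and RBCS3B are neighbours in a cluster of similar genes, and the way their shared reads were divided is a point the labels leave unstated.

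The make-up of a family within a library does not change when a library is multiplied by 1 factor, though quantile normalization can change it, and it is given here as shares of the family's summed RPKM without a test. In the RBCS family RBCS2B took 13.4%, 13.7% and 11.9% in clf F1, 16.1%, 16.2% and 15.0% in C24 clf and 10.6%, 11.3% and 9.32% in Col clf. The 3 groups did not overlap, and clf F1 lay between its parents. RBCS3B went the other way, at 27.8%, 27.2% and 28.2% in clf F1, 24.9%, 24.3% and 24.7% in C24 clf and 29.9%, 29.3% and 30.3% in Col clf. In the LHCB1 family LHCB1.2 took 31.0% ± 0.954 in clf F1, 34.7% ± 1.21 in C24 clf and 28.1% ± 0.523 in Col clf, and LHCB1.4 took 12.3% ± 1.00, 9.76% ± 0.939 and 14.0% ± 1.11 (SD, n = 3 each). With LHCB1.3 listed at 0, the share of LHCB1.2 is uncertain, and so is the division of shared reads among RBCS1B, RBCS2B and RBCS3B. Within CP29, LHCB4.3 was a trace form at 0.175% ± 0.045 in clf F1, 0.369% ± 0.066 in C24 clf and 0.141% ± 0.029 in Col clf.

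In the LHCB2 family the hybrid lay outside both parents. LHCB2.1 took 37.9%, 37.0% and 38.3% of the family in clf F1, 45.6%, 45.2% and 46.1% in C24 clf and 44.5%, 43.6% and 44.7% in Col clf. LHCB2.2 took 46.2%, 46.8% and 47.0% in clf F1, 40.2%, 40.2% and 40.4% in C24 clf and 40.6%, 41.6% and 41.2% in Col clf. For both genes every clf F1 library lay beyond every parental library. LHCB2.1 and LHCB2.2 are similar copies that lie near each other, so the split of their reads is uncertain. PSAD, PSAE and PSBO forms moved by 1.75 to 2.86 percentage points between C24 clf and Col clf, with clf F1 in between, and the PSAH and PSBQ pairs overlapped between C24 clf and Col clf.

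**Figure D3:**
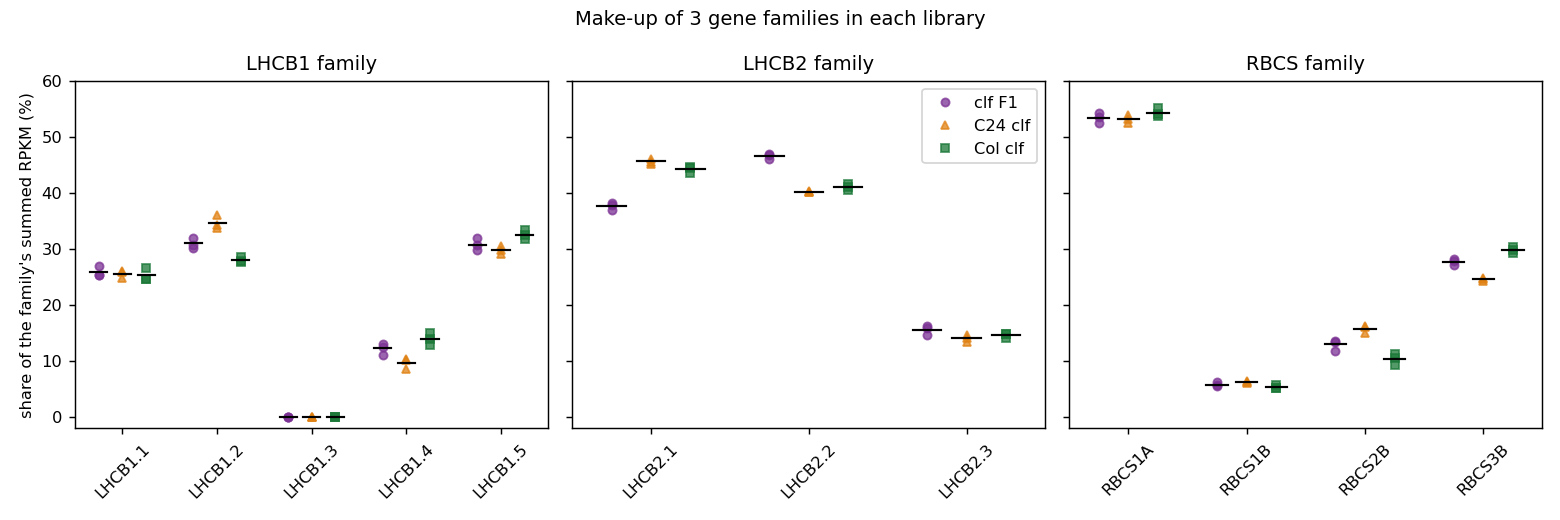
Share of each gene in the summed RPKM of its family (%), for LHCB1, LHCB2 and RBCS, in each library of clf F1 (circles), C24 clf (triangles) and Col clf (squares). Black lines are means of 3 libraries. For RBCS2B and RBCS3B clf F1 lies between its parents, and for LHCB2.1 and LHCB2.2 it lies outside both.

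The clf F1 hybrid was then set against the mid-parent, the mean of the fitted levels of C24 clf and Col clf. The hybrid stood slightly above the mid-parent in 43 of 45 genes, against 2866 of all 17819 tested genes. The median log2 difference was 0.12, while the median over all tested genes was -0.12. With the libraries taken as independent, 3 genes were higher and none was lower (limma adjusted p below 0.05). An unadjusted p below 0.05 was found for 22 of the 45, and for 5691 of all 17819 tested genes. Among all tested genes 0.37% were higher and 6.36% lower. All 3 clf F1 libraries lay above all 6 parental libraries in 4 genes (LHCB1.1, LHCB2.2, PSAH1 and PSBY), against 0.354% of all tested genes, and below them in 0 genes, against 5.54% of all tested genes. These comparisons share the C24 clf and Col clf libraries with the comparison above.

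LHCB2.2 (AT2G05070) was listed at 4323, 4628 and 4112 RPKM in clf F1, with a mid-parent of 3381 RPKM, and every clf F1 library exceeded the highest parental library. Its log2 difference was 0.37 (SE 0.074, limma adjusted p 0.0201). LHCB4.1 had 3811, 3876 and 3962 RPKM in clf F1 against a mid-parent of 3320 RPKM, at 0.23 (SE 0.058, adjusted p 0.043). PSAK had 2314, 2343 and 2403 RPKM in clf F1 against a mid-parent of 2021 RPKM, at 0.22 (SE 0.056, adjusted p 0.0413). The clf F1 libraries of LHCB4.1 and PSAK overlapped those of Col clf and lay above those of C24 clf.

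Libraries with the same replicate number deviated together, and with the replicate number as a block 20 genes were higher and 1 was lower. Calls became more frequent across the whole table as well, with 287 of all 17819 genes higher and 4185 lower, against 66 and 1133 without the block. The 20 were 6 LHCII trimer genes, 5 photosystem I subunits, all 4 Rubisco small-subunit genes, 2 minor antenna genes, 2 other photosystem II subunits and 1 photosystem I antenna gene. In that paired fit LHCB2.2 had adjusted p 6.82e-04, RBCS3B 0.0175, RBCS2B 0.00689 and RBCS1A 0.0251, at the same log2 differences as before (0.37, 0.23, 0.22 and 0.20). The lower gene was LHCB4.3, at -0.26 (adjusted p 0.0454), with 14.7, 9.19 and 11.7 RPKM in clf F1 and a mid-parent of 14.2 RPKM.

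These F1 calls rest on few libraries and on the scaling. Without clf F1 replicate 2 or 3 the count of higher genes was 0. Without Col clf replicate 1, 2 or 3 or C24 clf replicate 1 or 3 it was 1. Over all tested genes the count of higher calls, 66 with all libraries, was 43, 87, 49, 47 and 35 there, in that order. It was 17 without clf F1 replicate 2 and 14 without clf F1 replicate 3. The member median was 0.12 and 0.13 in these 2 settings. Without the 3 libraries richest in rRNA only replicate 1 of clf F1 was left, so no count is given, and the member median was 0.10. With quantile normalization the count was 0, the member median was -0.10 and 11 of 45 estimates were positive in place of 43, so the direction turned, and with median-ratio scaling the count was 4 with a median of 0.24. As means, clf F1 lay above both parents in 28 of 45 genes (62.2%), against 5.62% of all tested genes, between them in 17 and below both in 0, against 47.2% of all tested genes. LHCA3 was the member whose 3 clf F1 libraries (3852, 4109 and 4100 RPKM) all lay between the non-overlapping ranges of C24 clf and Col clf.

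**Figure D4:**
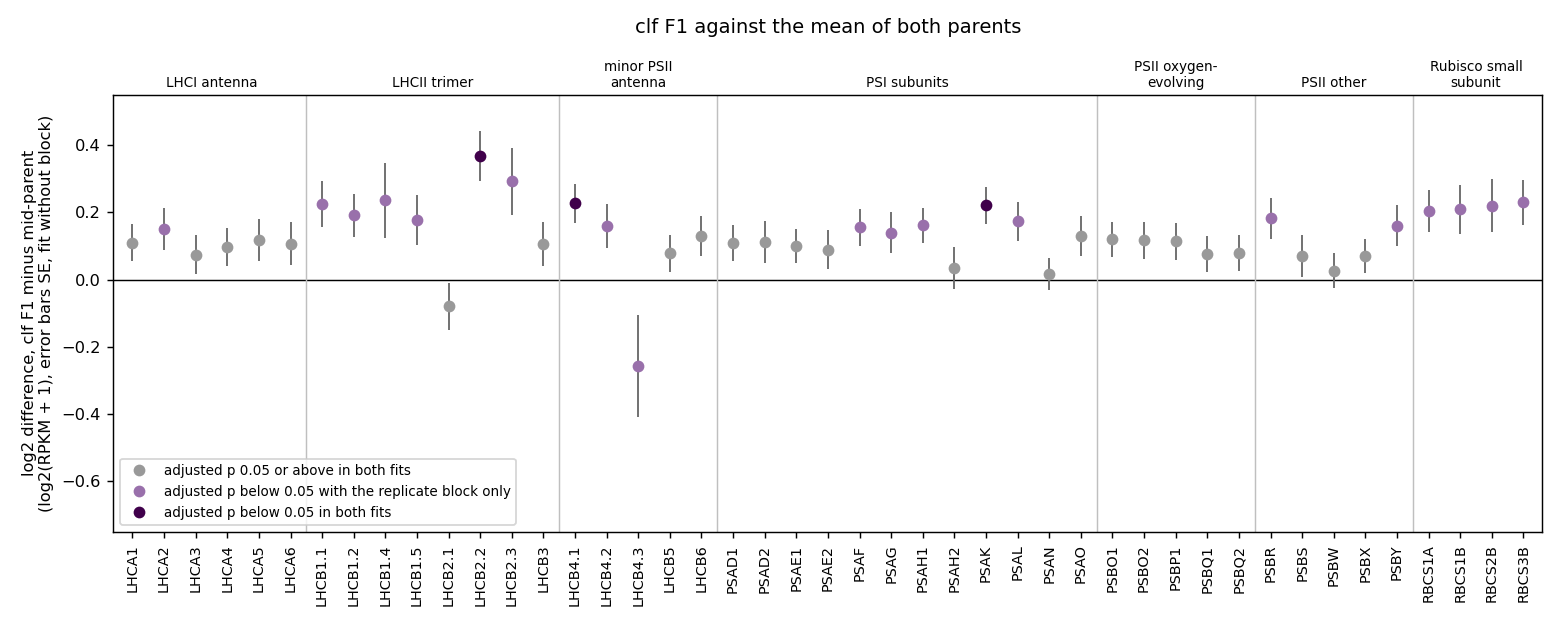
log2 difference of each gene, clf F1 minus the mid-parent, on the log2(RPKM + 1) scale with SE bars from the fit without a block (3 libraries a group). Dark points passed in both fits (3 genes), lighter purple points with the replicate block only (17 higher genes and LHCB4.3) and grey points in neither. All but LHCB2.1 and LHCB4.3 lie above 0 with RPKM as deposited, while with quantile normalization 11 of 45 did.

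Other genes of the pathway were counted in lists chosen by function. Against Col clf, C24 clf had 5 higher and 0 lower of 21 chlorophyll synthesis genes, a smaller share higher than the 31.8% of all tested genes, among them DVR (divinyl reductase) at 0.53 (limma adjusted p 3.25e-04), GSA1 at 0.30 and CHLG (chlorophyll synthase) at 0.25. With median-ratio scaling 2 were higher and 6 lower, and with quantile normalization 5 and 1. Of 16 Calvin cycle genes 1 was higher (RPI3, ribose-5-phosphate isomerase, at 0.47) and 1 lower (CFBP1, fructose-bisphosphatase, at -0.22), and of 10 electron carrier and ATP synthase genes none passed, with 1 at an unadjusted p below 0.05. With median-ratio scaling these lists had 1 higher and 7 lower and 0 higher and 3 lower genes, and with quantile normalization 3 and 3 and 3 and 0. Of 17 light and chloroplast regulators 4 were higher and 4 lower, against 31.8% higher and 12.7% lower of all tested genes. HY5 at 0.86, CGA1 at 0.73, GUN1 at 0.67 and PIF5 at 0.20 were higher. PIF4 at -0.70, CRY1 at -0.35, PIF3 at -0.32 and PHYA at -0.29 were lower. With the replicate block, C24 clf had 9 higher and 3 lower chlorophyll synthesis genes, 2 higher and 4 lower Calvin cycle genes and 1 higher and 1 lower electron carrier gene. Over all 17819 tested genes the block gave 6800 higher and 2744 lower, against 5675 and 2260 without it. HY5, CGA1 and the photoreceptors CRY1 and PHYA are known to promote light-driven greening, PIF3, PIF4 and PIF5 restrain it, and GUN1 acts in chloroplast-to-nucleus signalling, so the calls ran in both directions.

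Of 7 further photosystem genes outside the set, PSBP2, a weakly expressed relative of the oxygen-evolving protein PSBP1, was higher at 1.25 (limma adjusted p 1.17e-06). PSB27 and PSBTN were lower, at -0.44 and -0.30, and PSBTN did not pass with quantile normalization (adjusted p 0.193). With the replicate block this list had 3 higher and 3 lower genes. The 7 chloroplast-encoded partners were all lower in C24 clf, with a median log2 difference of -1.60, and RBCL, the large subunit of Rubisco, stood at -1.94, PSBA at -1.83 and PSBC at -1.68. Their summed level was 343.7, 751 and 641 RPKM in clf F1, 146.9, 133.3 and 89.3 in C24 clf and 446.4, 823.6 and 205.7 in Col clf. The rRNA gene was also lowest in C24 clf. In Col clf this sum and the rRNA were both highest in replicate 2 and lowest in replicate 3. In C24 clf both were highest in replicate 1 and lowest in replicate 3. In clf F1 both were lowest in replicate 1, while the sum was highest in replicate 2 and the rRNA in replicate 3. The part of rRNA in this result was not tested. Against the mid-parent, GLK1, an activator of photosynthesis genes, was higher at 0.24 (adjusted p 0.0489), PSBP2 was higher at 0.33 (adjusted p 0.0441) and PIF3 was lower at -0.35 (adjusted p 0.0254). Leaving out any 1 library other than Col clf replicate 2 or clf F1 replicate 1 ended 1 or more of these 3 calls, and without clf F1 replicate 2 the adjusted p was 0.171 for GLK1, 0.172 for PSBP2 and 0.0794 for PIF3. None of the 7 chloroplast-encoded genes passed against the mid-parent by limma, with all 7 at an unadjusted p below 0.05, and with the replicate block all 7 were higher in clf F1. The block also gave, against the mid-parent, 1 higher and 4 lower of 21 chlorophyll synthesis genes and 2 higher and 0 lower of 16 Calvin cycle genes. Neither list had a call without it. Over all 17819 tested genes the block gave 287 higher and 4185 lower, against 66 and 1133 without it.

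Few of the genes lay under an H3K27me3 peak. A peak shared at least 1 base with the span of 1 of 46 members in clf F1, 1 in C24 clf and 2 in Col clf, against 23.2%, 22.2% and 21.9% of 27444 protein-coding genes in these lists. In wild type it was 1 and 0 of 46 in F1 replicates 1 and 2, 2 and 6 in C24 replicates 1 and 2 and 2 and 0 in Col replicates 1 and 2. The shares of all genes there were 24.4% and 14.5% in F1, 23.8% and 19.3% in C24 and 24.2% and 9.13% in Col. Among the 200 highest genes outside the set, 9.5%, 8.0% and 10% were overlapped in clf F1, C24 clf and Col clf. In all, 37 of the 46 genes had no peak over them in any of the 9 lists, and 27 had none within 1000 bases. These counts across lists were not made for all protein-coding genes, so they have no share to be read against.

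LHCB4.3, the lowest of the genes listed above 0, was the one under a peak most often. All 3 clf lists and replicate 1 of each wild type held 1, and replicate 2 of each wild type did not. The replicate 2 lists had the lowest median scores, 87.2 to 125.2, against 441.4 to 622.6 in the other lists. The peak lay at chr2:16745610-16747359 in clf F1, at chr2:16745558-16746762 in C24 clf and at chr2:16745670-16746807 in Col clf (TAIR10 as the submitters name it), over 96.4%, 63.2% and 63.3% of the gene span. The authors' scores were 617.5, 310.5 and 388.2 and the authors' fold enrichments 7.91, 7.63 and 6.19 in these lists. In wild type replicate 1 the scores were 270.8 in F1, 229.8 in C24 and 68.6 in Col. Scores of different lists show no change between them, since the lists differ in depth and length. LHCB4.3 mRNA was present beside the peak, at 9.19 to 14.7 RPKM in clf F1, 16.3 to 21.45 in C24 clf and 7.28 to 11.5 in Col clf.

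The other peaks over members were few. LHCA6 was overlapped in Col clf (score 61.6, 769 bases) and by 7 bases in wild-type Col replicate 1. The 7 bases were the edge of a peak over the neighbouring gene AT1G19160. A peak over that gene was in 6 lists, elsewhere 21 to 139 bases from LHCA6. RBCS2B lay within a peak of 3012 bases in wild-type C24 replicate 1 (score 225) and in no other list. All wild-type replicate 2 lists had low median scores, at 125.2 in F1, 87.2 in C24 and 102.6 in Col. The other lists had 441.4 to 622.6. The list of wild-type C24 replicate 2 had the lowest median score and the shortest median peak length, 913 bases, against 1998.5 bases in replicate 1. That list alone held peaks over LHCA2, PSAF, PSBO1, PSBO2, PSBQ2 and RBCS1A, with scores from 50.8 to 95.2, and it overlapped 17.5% of the 200 highest genes outside the set, the largest share of the 9 lists. Without it, 3 members were overlapped in any wild-type list in place of 9.

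Some members had a peak beside them. RBCS3B had a peak 132 to 632 bases from its span in all 9 lists, over the neighbouring gene AT5G38400, which was listed at 0 RPKM in every mRNA group. LHCA3 had one 480 to 859 bases away in all 9 lists, over AT1G61540, which had a mean of 0.010 RPKM in C24 clf and 0 in clf F1 and Col clf. LHCB5 had one within 295 to 700 bases in 7 lists, and LHCA4 and PSAH1 within 1000 bases in 5. None of these peaks reached the member itself.

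**Figure D5:**
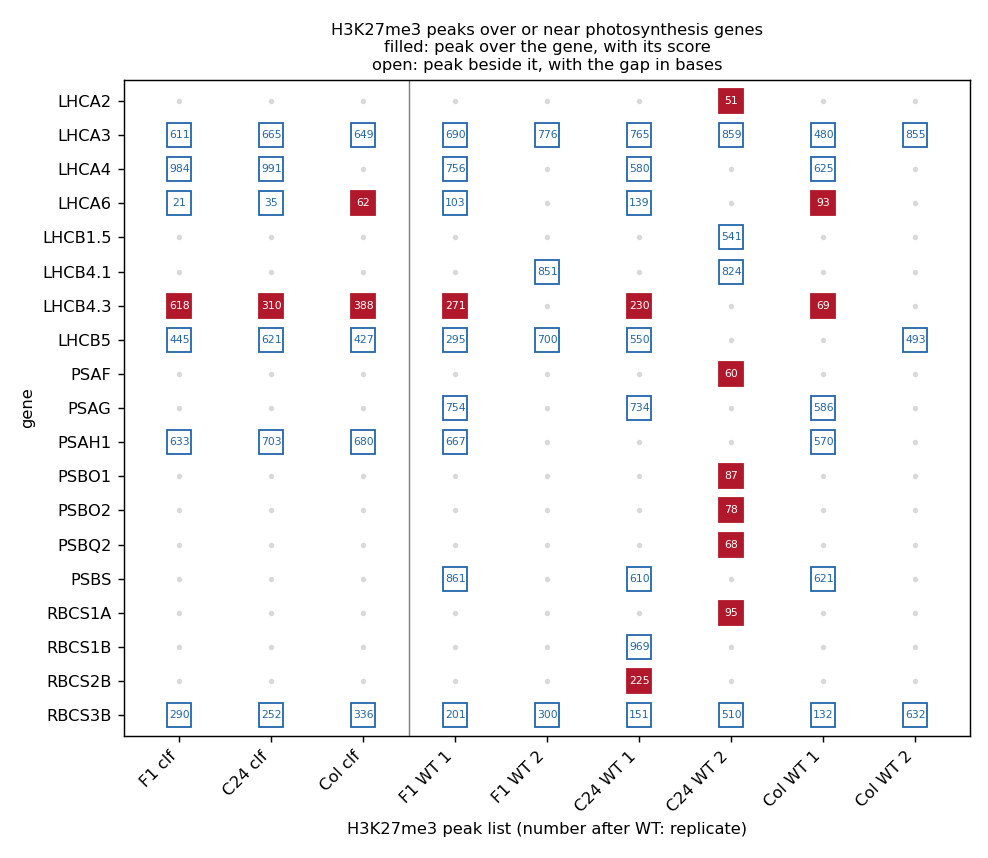
H3K27me3 peaks at the 19 genes with a peak over them or within 1000 bases, in the 3 clf lists (left) and the 6 wild-type lists (right). Filled squares mark a peak over the gene, with the authors' score, open squares a peak beside it, with the distance in bases, and dots no peak. LHCB4.3 is filled in 6 lists, and LHCA3 and RBCS3B have an open square in all 9.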

How the data were processed

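Members and lists were chosen with earlier results of these data known. The mRNA values are RPKM per gene as deposited by the authors, with the unit read from the values. TopHat, Bowtie and TAIR10 are named, without versions, in the submitters' processing notes. How reads were counted, by strand or at several positions, was not given in the sources used here, and 17 members overlap another annotated gene. Of 34133 lines per file, 1141 lines of 567 repeated IDs were left out. Depth was estimated from the step of 1 read in genes of up to 400 bases. Peak lists hold, per library, the authors' tag counts, a score of at least 50 and a fold enrichment, as deposited, with a caller not given in the sources used here.

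log2(RPKM + 1) was fitted with limma 3.58.1 (R 4.3.3, trended prior, 3 groups) after a test on simulated data. The mid-parent is the arithmetic mean of fitted parental levels, with a delta-method SE. Libraries of the same replicate number correlated in their deviations from group means (r from 0.169 to 0.426 over 9 pairs), while different numbers gave -0.275 to -0.002 over 18 pairs. Deviations within a group sum to 0, so positive values in some pairs push the others below 0. The block takes the numbers as pairs, which the labels do not state. Replicate numbers come from the labels. Gene spans for peaks come from a RefSeq table (TAIR10.1, without strand), and its span coordinates are not printed. Values in every library are given for members at 0, under a peak, or among up to 12 called members with the largest log2 difference in a comparison.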

Additional observations from a re-analysis of the deposited data

How the results depend on the processing

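The count of 26 members lower in C24 clf was 15 with no filter on low values, where 24937 genes were tested, 2 with quantile normalization and 17 without the 3 libraries richest in rRNA (an alternative chosen after seeing the data). It ran from 19 to 27 when 1 library was left out, and the 2 higher members became 1 with median-ratio scaling. The 3 members higher in clf F1 than the mid-parent became 0 with no filter, 5 with a filter of 5 RPKM and 0 with quantile normalization. They became 1 when libraries were rescaled without the members and 0 to 3 when 1 library was left out. The counts over all tested genes in these settings were 42, 54, 101, 52 and 14 to 132, against 66. Without the rRNA-rich libraries no count is given here either, and the member median was 0.10. With the replicate block 20 members were higher, with 1 lower in place of 0. Of all 17819 tested genes 287 were then higher and 4185 lower. With quantile normalization 15 of the 26 lower members turned positive for C24 clf minus Col clf, among them LHCB2.2 (0.0312), PSBR (0.0701) and LHCB3 (0.0623), and positive estimates for clf F1 minus the mid-parent went down to 11 in place of 43, with LHCB4.1 (-0.0362) among those that turned. Beyond what the settings do by construction, the cause was not tested. Members overlapped by a peak in any clf list were 2, with 7 when 1000 bases on both sides were added (chosen after seeing the data) and 1 at a score of at least 100. In any wild-type list they were 9, with 19, 2 and, without wild-type C24 replicate 2, 3. The same counts across lists were not made for all protein-coding genes. A window of 1000 bases upstream was not run because the gene table gives no strand. The replicate block gave 31 lower and 2 higher members in C24 clf, where all 26 lower members kept their call and PSAD1, PSAG, PSBO1, PSBQ1 and PSBQ2 gained one. Calls rose over all 17819 tested genes too, to 6800 higher and 2744 lower, against 5675 and 2260 without the block.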
